A study of Mus musculus with 12 samples.

Results

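The 10 genes described here encode beta-catenin (Ctnnb1), the complex that marks it for degradation and the co-receptors that halt this complex: Axin1, Axin2, Apc, Gsk3a, Gsk3b, Csnk1a1, Csnk1e, Lrp5 and Lrp6. They were chosen by name, as the signalling complex in which MACF1 is known to act, out of 21887 protein-coding genes on the assembled nuclear chromosomes. A peak was assigned to a gene when it overlapped the RefSeq span of the gene or the 5 kb on either side of it. All 10 genes were found in the gene table. Of them, 9 had at least 1 peak in a library from MACF1 knockdown cells (57.7% of all genes did), none had a peak in a control library (6.7% of all genes did), and Gsk3a had no peak in any library.

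Beta-catenin is a cell adhesion protein that also enters the nucleus and acts with TCF/LEF factors to activate Wnt target genes. Without a Wnt signal, the scaffold proteins Axin and APC hold it while casein kinase 1 and glycogen synthase kinase 3 phosphorylate it, after which it is ubiquitinated and degraded. When Wnt binds Frizzled and LRP5 or LRP6, Axin is drawn to the membrane, beta-catenin is spared, and in the osteoblast lineage this favours bone formation. MACF1, a crosslinker of actin and microtubules, associates with Axin, APC, GSK3 and beta-catenin in the cytoplasm and takes part in moving Axin to the receptor. The values below are about the DNA of these genes in chromatin immunoprecipitates and say nothing of their RNA or protein.

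The material was MC3T3-E1, an established line of mouse osteoblasts, with the genotype label control or MACF1 knockdown. The sources used here do not give how MACF1 was knocked down or whether each library had a culture of its own; p-values therefore measure the spread between libraries, which may be technical. Each group held 3 libraries made with an antibody against MACF1 and 3 matched inputs, with the labels 1, 2 and size3, which gave 12 samples and 6 peak lists. Peak calls came from each immunoprecipitate set against its own input. The 10 genes carry no edit or transgene in either group, as far as the labels say.

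The libraries differed in depth and in the length of their lists. Control immunoprecipitates held 10.7 to 33.1 M reads (M, 1e6 reads) after duplicate removal and knockdown immunoprecipitates 5.58 to 18.5 M. Control lists held 198 to 2196 peaks and knockdown lists 4513 to 21398. The peak caller's false discovery rate, which compares the list with one made after swapping immunoprecipitate and input, had a median of 100% in control 1, control 2 and knockdown 2, 85.3% in control size3, 2.71% in knockdown 1 and 4.37% in knockdown size3. The share of duplicate reads was 0.51 in knockdown 1, 0.65 in knockdown 2 and 0.02 in knockdown size3. It was 0.25 in control 1, 0.16 in control 2 and 0.01 in control size3, and its part in the results was not tested. Peak lists hold no reads outside peaks, so a gene without a peak may still have had reads below the caller's limit. They do not show whether MACF1 was depleted either, so the group labels could not be checked here.

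Ctnnb1 (chromosome 9, 120933400 to 120960507, GRCm38, plus strand) was the only one of the 10 genes at which a peak on the gene itself was shared by 2 libraries. Both peaks lay across its start. In knockdown size3 the peak ran from 120932802 to 120933578, with 19 reads (95% exact Poisson interval 11.4 to 29.7), a 12.6-fold enrichment over input and a false discovery rate of 2%. In knockdown 1 it ran from 120932897 to 120934623, with 87 reads (69.7 to 107), a 3.43-fold enrichment and a false discovery rate of 2.99%. The 2 peaks overlapped by 682 bp. Knockdown 2 and the 3 control libraries had no peak within 5 kb of the gene, and the nearest control peak, in control size3, was 729 kb away.

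The summits of these peaks fell 164 bp upstream of the first RefSeq start in knockdown size3 and 135 bp upstream in knockdown 1. They were thus 29 bp apart. Over all 1954 regions shared by these libraries the median distance between summits was 287 bp, with quartiles of 84 and 803 bp, and 10.8% of regions had summits at most 29 bp apart. Scaled to length and depth, the peak held 29.9 reads per kb per 10 M reads in knockdown size3 (18.0 to 46.7) and 27.3 in knockdown 1 (21.9 to 33.7). These intervals, which cover counting error only, overlap widely. Reads spread evenly over the effective genome used by the peak caller would give 5.35 on this scale. Peaks were called for an excess of reads, so standing above this value does not set the region apart from other peaks. The median over all peaks of the list was 32.50 in knockdown size3 and 25.01 in knockdown 1. The Ctnnb1 peak thus lay below the median in knockdown size3 and above it in knockdown 1, between the quartiles of the list in both. By fold enrichment the peak ranked 1114 of 17592 in knockdown size3 but 18973 of 21398 in knockdown 1, so the same region stood high in one list and low in the other.

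The 250 bases before the first start of Ctnnb1 (chr9:120933150-120933399, plus strand) hold both summits and are shown for that reason. Sequences were taken from the RefSeq promoter table of GRCm38.p6, in which 5 of the 10 genes have an entry (Ctnnb1, Axin2, Gsk3a, Gsk3b and Csnk1e). Capitals mark matches, on either strand, to the GC box GGGCGG, known as a site of Sp1, and to ATTGG, the core of the CCAAT box.
Ctnnb1: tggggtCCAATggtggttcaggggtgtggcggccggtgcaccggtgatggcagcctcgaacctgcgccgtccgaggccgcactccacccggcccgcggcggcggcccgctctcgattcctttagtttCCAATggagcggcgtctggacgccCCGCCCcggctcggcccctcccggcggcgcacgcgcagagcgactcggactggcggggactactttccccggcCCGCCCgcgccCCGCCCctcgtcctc

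The summit of knockdown size3 fell on base 87 of this stretch and that of knockdown 1 on base 116, counted from its 5′ end. The CCAAT box matches lie at bases 7 to 11 and 128 to 132, and the GC box matches at bases 152 to 157, 225 to 230 and 236 to 241. Over the 21263 promoter windows of protein-coding genes, 42.6% held a GC box match and 35.4% a match to ATTGG. The letters CAAAG and CTTTGA, from the TCF/LEF site, CANNTG and CAGCTG, the general E-box and one of its forms, and GCGGGAA, from the E2F site, do not occur in this window. They occur in 46.4%, 12.7%, 62.8%, 12.1% and 4.96% of all windows, in that order. A match or its lack describes these letters only.

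**Figure D1:**
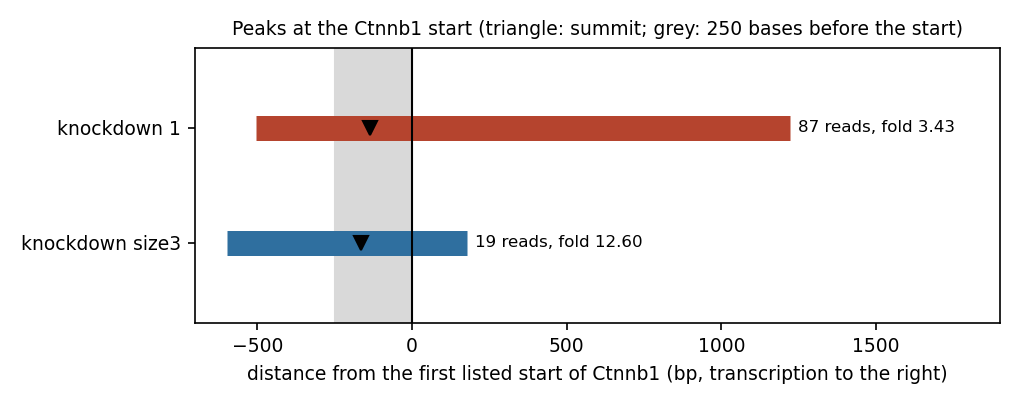
Peaks of knockdown 1 and knockdown size3 at the start of Ctnnb1, as bars along the distance in bp from the first listed start, with summits as triangles and the 250 bases before the start in grey. Both summits lie in the grey stretch, 135 and 164 bp before the start.

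Knockdown 1 had further peaks at Ctnnb1 that no other library shared. One lay inside the gene at 120955180 to 120956017, 22161 bp downstream of the start to its summit, with 30 reads and a 6.19-fold enrichment. Another lay 648 bp beyond the upper end, at 120961155 to 120962080, with 37 reads and a 6.87-fold enrichment. Peaks at Ctnnb1 thus numbered 3, 0 and 1 in knockdown 1, 2 and size3 and 0 in each control library.

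The scaffold genes differed from one another. Axin1 and Axin2 encode the limiting scaffold and its Wnt-induced relative, and Apc encodes the large partner that carries beta-catenin. Axin1 (chromosome 17, 26131217 to 26195811) had 3, 1 and 4 peaks in knockdown 1, 2 and size3, the most of any of the 10 genes. Axin2 (chromosome 11, 108917828 to 108950783) had 1, 0 and 1. Apc (chromosome 18, 34220297 to 34322190) had 0, 0 and 1. The control libraries had none at all 3 genes, and their nearest peak was 45.6 kb from Axin2, in control size3.

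At Axin1 the only region called in 2 libraries did not lie on the gene. It spanned 26123177 to 26127700, with its nearer edge 3517 bp below the gene, and overlapped the neighbouring genes Mrpl28 and Pgap6, of which Mrpl28 encodes a mitochondrial ribosomal protein. It held 312 reads at a 3.47-fold enrichment in knockdown 1, and 48 reads at a 4.28-fold enrichment in knockdown size3, where the peak was narrower and overlapped Mrpl28 alone. The summits were 2970 bp apart, and 97.3% of shared regions had summits no farther apart.

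Inside Axin1 the 6 remaining peaks each came from 1 library. Knockdown 1 had peaks with summits 11684 and 56940 bp above the lower gene end, with 53 and 77 reads and fold enrichments of 4.76 and 3.15. Knockdown size3 had summits at 6148, 30626 and 53041 bp, with 19, 12 and 21 reads and fold enrichments of 7.34, 10.4 and 7.88. Knockdown 2 had 1 peak, at 41121 bp, with 9 reads, a 13.0-fold enrichment and a false discovery rate of 100%. The closest approach between libraries inside the gene was a gap of 2854 bp, between knockdown 1 and knockdown size3.

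At Axin2 the peak of knockdown 1 covered the listed start at 108920349. It ran from 108919913 to 108922787 and held 213 reads at a 3.52-fold enrichment, but its summit lay 1569 bp downstream of the start. The peak of knockdown size3, at 108930583 to 108931458, held 27 reads at a 6.30-fold enrichment, with its summit 10914 bp downstream. A gap of 7796 bp separated them. The single peak of Apc, in knockdown size3 at 34300479 to 34301117, held 15 reads at a 9.66-fold enrichment, with a false discovery rate of 6.30%; its summit lay 21396 bp from the upper gene end.

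At the kinase genes no peak was shared between libraries, as at Axin2, Apc, Lrp5 and Lrp6, and peak numbers differed from gene to gene. Gsk3a and Gsk3b encode the 2 forms of glycogen synthase kinase 3, which act on beta-catenin redundantly. Gsk3b (chromosome 16, 38089001 to 38246084, plus strand), the longest of the 10 genes at 157 kb, had 3, 1 and 0 peaks in knockdown 1, 2 and size3. Gsk3a (chromosome 7, 25228258 to 25237851, minus strand), the shortest at 9.59 kb, had 0 in every library. Its nearest peaks were 6.20 kb away in knockdown 1 and 6.60 kb away in knockdown size3, just outside the limit of 5 kb. Among protein-coding genes under 10 kb, 25.6% had a peak in knockdown 1 and 19.2% in knockdown size3, so a lack of peaks was common at this length.

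At Gsk3b the largest peak of knockdown 1, with 146 reads at a 2.95-fold enrichment, covered the listed start (38088026 to 38090157), and its summit lay 844 bp downstream. A peak inside the gene, 70115 bp downstream of the start to its summit, held 48 reads at a 4.22-fold enrichment. The third peak of knockdown 1 lay 4623 bp above the gene and on Nr1i2, which encodes a xenobiotic receptor. Knockdown 2 had a peak of 8 reads inside Gsk3b, with a 15.6-fold enrichment and a false discovery rate of 100%, and it was 31818 bp from the nearest peak of knockdown 1.

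The starts of Axin2 and Gsk3b lay in a peak of knockdown 1 and that of Gsk3a in none, so the 250 bases before each are shown beside those of Ctnnb1 (chr11:108920099-108920348, plus strand; chr16:38088751-38089000, plus strand; chr7:25237852-25238101, minus strand). Capitals again mark GGGCGG and ATTGG on either strand.
Axin2: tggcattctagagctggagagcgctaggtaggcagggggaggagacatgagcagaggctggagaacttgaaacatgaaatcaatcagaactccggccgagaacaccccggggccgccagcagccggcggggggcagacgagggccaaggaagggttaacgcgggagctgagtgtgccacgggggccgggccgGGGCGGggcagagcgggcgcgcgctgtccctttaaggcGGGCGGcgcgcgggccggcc
Gsk3b: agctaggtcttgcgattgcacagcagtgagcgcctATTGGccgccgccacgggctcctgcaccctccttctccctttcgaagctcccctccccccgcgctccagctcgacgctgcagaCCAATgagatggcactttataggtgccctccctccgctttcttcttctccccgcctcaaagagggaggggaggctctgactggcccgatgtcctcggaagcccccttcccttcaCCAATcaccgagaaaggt
Gsk3a: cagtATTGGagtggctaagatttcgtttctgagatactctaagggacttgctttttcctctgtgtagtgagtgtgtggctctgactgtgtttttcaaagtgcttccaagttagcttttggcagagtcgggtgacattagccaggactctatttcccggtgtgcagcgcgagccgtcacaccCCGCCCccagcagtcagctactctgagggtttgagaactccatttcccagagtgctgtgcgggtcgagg

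The windows of Ctnnb1 and Axin2 were rich in G and C, at 74.8% and 69.2%, against a median of 55.6% over all windows. Gsk3b had 62%, Csnk1e 61.2% and Gsk3a 52%. The ratio of observed to expected CpG was 1.01 at Ctnnb1, 0.860 at Axin2, 0.662 at Gsk3b, 0.514 at Csnk1e and 0.537 at Gsk3a, and its median over all windows was 0.530. The 3 genes whose start lay in a peak thus had the highest values of the 5 on both measures, though Gsk3b and Csnk1e lay close together in GC content. For Csnk1e, with 4 listed starts, and Ctnnb1, with 2, only the window before the first listed start was used. Windows whose start lay in a peak of knockdown 1 (3364 windows) or knockdown size3 (1469 windows) had median GC contents of 63.2% and 62.4%, so base composition moved with peaks at starts in these libraries, and its part in the result was not tested. Gsk3b held 3 matches to ATTGG and no GC box, Axin2 held 2 GC boxes and no match to ATTGG, and Gsk3a held 1 match to each.

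Csnk1a1 and Csnk1e encode the alpha and epsilon forms of casein kinase 1; the alpha form places the priming phosphate on beta-catenin. Each had 1 peak, in knockdown 1. At Csnk1a1 (chromosome 18, 61554236 to 61590320) it ran from 61554787 to 61556154, with its summit 978 bp above the lower gene end, and held 96 reads at a 3.69-fold enrichment. At Csnk1e (chromosome 15, 79417852 to 79455579, minus strand) it was 8221 bp wide, from 79419676 to 79427896, with 561 reads. This was the widest peak at the 10 genes, among the widest 0.154% of its list, and had the lowest fold enrichment of the 18 peaks of knockdown 1 at these genes, 2.69. Its summit lay 18103 bp downstream of the first listed start, and none of the 4 listed starts was in a peak. The nearest peaks of knockdown size3 were 19.1 kb from Csnk1a1 and 14.5 kb from Csnk1e.

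The co-receptor genes Lrp5 and Lrp6 encode related proteins that bind Wnt together with Frizzled and recruit Axin; LRP5 is known for its effect on bone mass. Lrp5 (chromosome 19, 3584825 to 3686585) had 3, 1 and 2 peaks in knockdown 1, 2 and size3, and Lrp6 (chromosome 6, 134446476 to 134566913) had 3, 0 and 3. All peaks of different libraries were apart at both genes. The closest pair was at Lrp5, where a peak of knockdown 2 (3677698 to 3678185, 17 reads, 8.53-fold) and one of knockdown size3 (3678973 to 3679913, 29 reads, 4.91-fold) were separated by 788 bp.

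In knockdown 1 the Lrp5 peaks held 95, 487 and 148 reads at fold enrichments of 3.35, 3.61 and 3.88. Their summits lay 1351, 58072 and 75323 bp above the lower gene end. The second was 7506 bp wide and among the widest 0.313% of its list. The other Lrp5 peak of knockdown size3 held 27 reads at a 4.88-fold enrichment and had its summit at 64844 bp, 4198 bp from the edge of the wide peak.

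Among the 18 peaks of knockdown 1 at the 10 genes, Lrp6 had the one with the highest score. It lay across the upper gene end, at 134566275 to 134567584, with its summit 66 bp inside the gene, and held 134 reads (112 to 159), or 55.4 reads per kb per 10 M reads (46.4 to 65.6). By the caller's p-value it ranked 141 of 21398, although its fold enrichment was 4.54 and its false discovery rate of 7.09% was the highest of the 18 peaks of this library at the 10 genes. A second peak of 39 reads followed 1043 bp beyond the gene. Knockdown size3 had no peak near that end: its 3 Lrp6 peaks, with 24, 14 and 13 reads and fold enrichments of 6.83, 9.90 and 11.6, had summits 10718, 19040 and 80603 bp above the lower end, inside the gene. The third Lrp6 peak of knockdown 1, also inside, held 31 reads at a 7.83-fold enrichment.

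**Figure D2:**
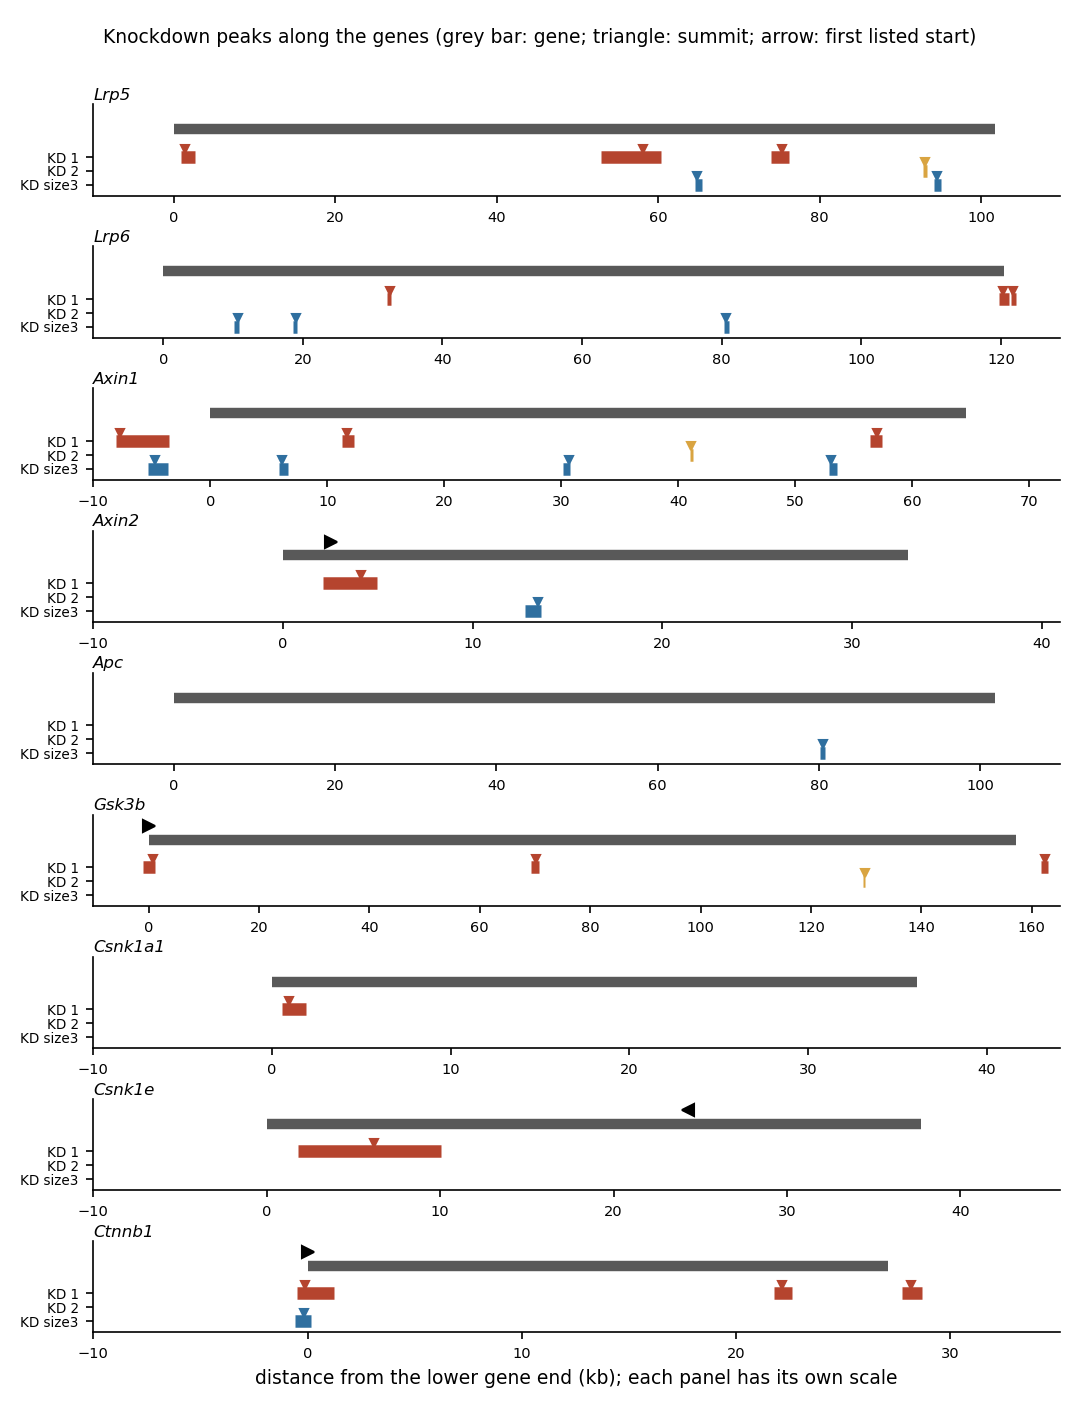
Peaks of the knockdown libraries (KD) along the 9 genes that had one, as bars against the distance in kb from the lower gene end, with the gene in grey, summits as triangles and the first listed start as an arrow where one is listed. Bars of different libraries lie over each other at the start of Ctnnb1 and below Axin1; elsewhere they lie apart.

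Over the 10 genes there were 33 peaks: knockdown 1 gave 18 of them, knockdown size3 12 and knockdown 2 3. They formed 31 regions, of which 29 were called in 1 library and 2 in 2 libraries. By position, 24 peaks lay inside the gene, 3 across its lower end, 1 across its upper end and 5 in the flanks. The region at Ctnnb1 and the one below Axin1 came from knockdown 1 and knockdown size3, and without either of these libraries no region was called in 2 libraries.

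**Figure D3:**
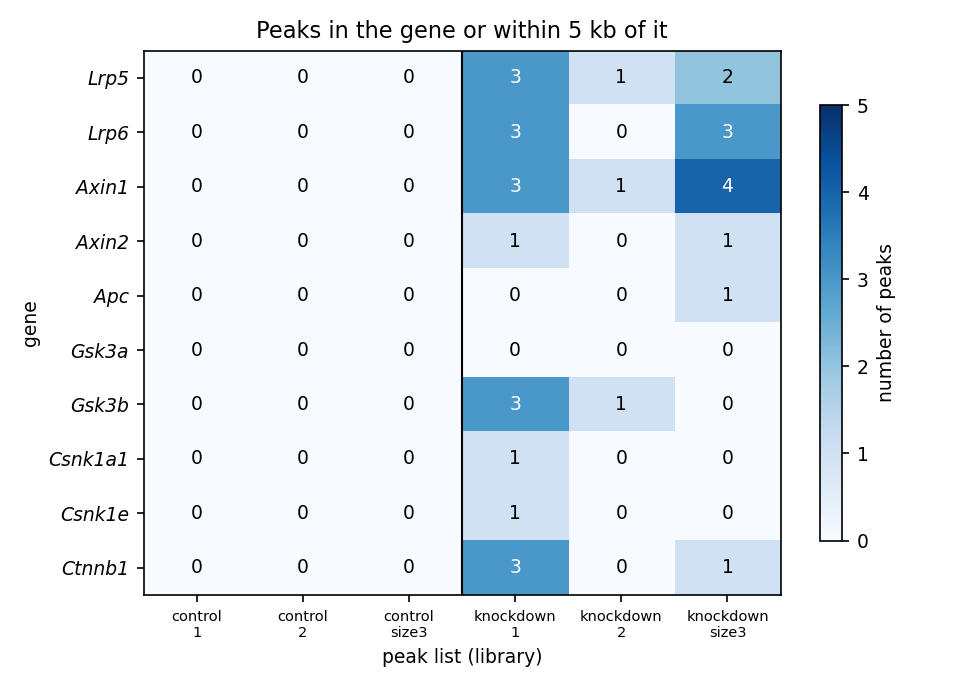
Number of peaks in the gene or within 5 kb of it, for each of the 10 genes (rows) in each of the 6 peak lists (columns), with darker blue for more peaks. The 3 control columns are 0 throughout, and Axin1 in knockdown size3 has the highest number, 4.

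These counts were set against the share of all protein-coding genes with a peak by the same rule. Knockdown 1 had a peak at 8 of the 10 genes and at 43.7% of all genes. Knockdown size3 had one at 6 of 10 (35.5% of all genes) and knockdown 2 at 3 of 10 (7.95%). In control libraries 0 of 10 stood beside 1.38% (control 1), 0.315% (control 2) and 5.49% (control size3) of all genes, so a count of 0 among 10 genes is close to what all genes show. For a peak in any knockdown library and in no control library the count was 9 of 10, beside 52% of all genes. A region called in at least 2 knockdown libraries occurred at 2 of 10, beside 8.52%; with the peak on the gene itself this was 1 of 10, beside 7.21%. No gene of the 10 had a region called in 2 control libraries, which 0.064% of all genes had.

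The 10 genes are long, with a median span of 51.2 kb against 17.2 kb for all protein-coding genes, and longer genes offer more room for a peak. Of the 4 genes of 100 kb or more (Apc, Gsk3b, Lrp5 and Lrp6), knockdown 1 had a peak at 3, knockdown size3 at 3 and knockdown 2 at 2. Among all genes of that length the shares were 77.6%, 68.1% and 30.8%. Of the 4 genes of 30 to 100 kb (Axin1, Axin2, Csnk1a1 and Csnk1e), 4, 2 and 1 had a peak in knockdown 1, size3 and 2, beside 56.6%, 46.9% and 11.6%. Per length, the windows of the 10 genes held 22.8 peaks per Mb for knockdown 1 (95% exact Poisson interval 13.5 to 36.0), 15.2 for knockdown size3 (7.86 to 26.6) and 3.80 for knockdown 2 (0.784 to 11.1). The windows of all genes held 12.5, 10.1 and 1.77. These intervals treat peaks as independent, though several genes held more than 1 peak of the same library, so they are not read as a test. The genes were proposed with results of these data known, so no test of the 10 genes as a set is given. In 0.789 Mb of windows the control libraries had no peak, which allows up to 4.67 per Mb, above their values of 0.0601 to 1.10 over all genes.

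**Figure D4:**
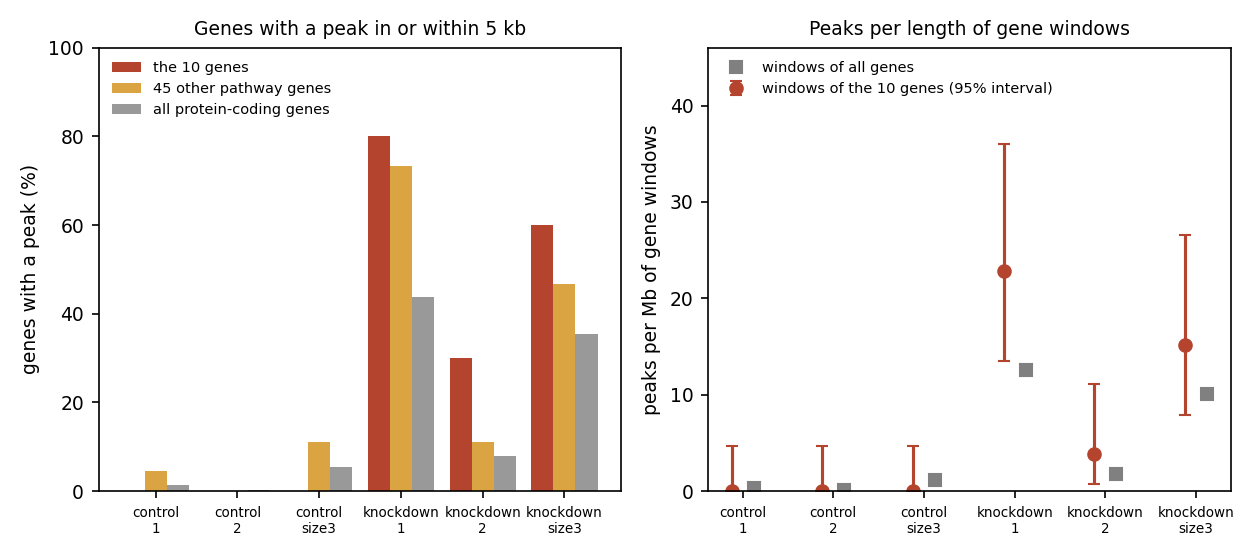
Left, the percentage of genes with a peak in the gene or within 5 kb, for the 10 genes, 45 other genes of the pathway and all protein-coding genes, in each list. Right, peaks per Mb of gene windows, with exact 95% Poisson intervals for the 10 genes that cover counting error only. The values were 22.8 for the 10 genes and 12.5 for all genes in knockdown 1, and 15.2 and 10.1 in knockdown size3.

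At listed starts, 3 of the 5 genes with an entry (Ctnnb1, Axin2 and Gsk3b) had a start in a peak of knockdown 1, beside 16.6% of 17492 genes. In knockdown size3 it was Ctnnb1 alone, beside 7.59%, and in the other libraries none, beside 0.0286% for knockdown 2, 0% for control 1, 0.00572% for control 2 and 0.177% for control size3. A start lying in a region of both knockdown 1 and knockdown size3 occurred at Ctnnb1 and at 2.12% of genes.

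Group differences were tested gene by gene on the number of peaks per library. The 10 genes were proposed with results of these data known, which the p-values and their adjustment do not account for. Axin1, with a mean of 2.67 ± 1.53 peaks (SD, n = 3) in knockdown and 0 in control libraries, and Lrp5, with 2 ± 1 (SD, n = 3) and 0, were the genes with a peak in all 3 knockdown libraries, a pattern of 2.35% of all genes. For Axin1 and Lrp5 the exact two-sided permutation p was 0.1, the smallest that 20 assignments allow, and 0.5 after Benjamini-Hochberg adjustment over the 10 genes. In knockdown 2 each rested on 1 peak with a false discovery rate of 100%, of 9 reads at Axin1 and 17 at Lrp5. With this rate limited to 5%, the difference was 1.67 peaks at Axin1 (exact permutation p 0.4) and 1 at Lrp5. On the gene itself, without the flanks, the difference at Axin1 was 2 peaks. Ctnnb1 (1.33 ± 1.53), Gsk3b (1.33 ± 1.53), Lrp6 (2 ± 1.73) and Axin2 (0.667 ± 0.577) had an exact permutation p of 0.4 (adjusted 0.667). At each of them exactly 1 knockdown library had no peak. Apc, Csnk1a1, Csnk1e and Gsk3a had an exact p of 1. In this design no difference could reach a lower p than that of Axin1 and Lrp5. Within labels, the knockdown library exceeded its control by 3 peaks at Ctnnb1 for label 1, by 0 for label 2 and by 1 for size3, and the values of the other genes equal their knockdown counts, since every control count was 0.

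The peaks at the 10 genes differed in shape between libraries. Their median fold enrichment was 3.78 for knockdown 1, 7.61 for knockdown size3 and 13.0 for knockdown 2, beside 4.98, 8.10 and 15.6 over the whole lists. Median width was 1364, 738 and 377 bp, beside 990, 647 and 359 bp. Median reads per peak were 91, 20 and 9, beside 46, 17 and 9. In knockdown 1 the peaks of these genes were thus wider and lower in fold than the list by their medians. Single peaks went the other way, with widths down to 629 bp and fold enrichments up to 7.83. All 3 peaks of knockdown 2 had a false discovery rate of 100%, while rates ran from 1.48% to 7.09% in knockdown 1 and from 2% to 7.11% in knockdown size3. A limit of 5% on this rate left 8 genes in knockdown 1, 4 in knockdown size3 (Ctnnb1, Axin1, Axin2 and Lrp6) and 0 in knockdown 2, beside 43.2%, 25.1% and 0.0320% of all genes.

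**Figure D5:**
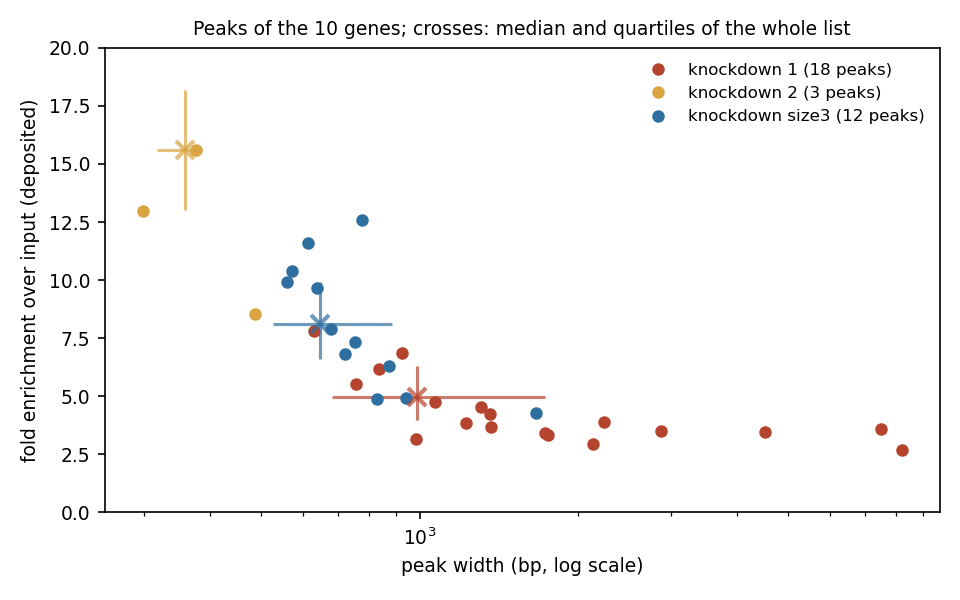
Fold enrichment over input against peak width (log scale, bp) for the 33 peaks at the 10 genes, coloured by knockdown library, with the median and quartiles of each whole list as a cross. The libraries occupy different ranges, with widths of 298 to 488 bp in knockdown 2, 559 to 1665 bp in knockdown size3 and 629 to 8221 bp in knockdown 1.

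Beyond these 10 genes, 45 further genes of beta-catenin signalling inside the cell were counted by the same rule: Dishevelled genes, further kinases, phosphatase subunits, ubiquitin ligases, tankyrases, TCF/LEF factors and their nuclear partners, together with Macf1 and the transcriptional regulator genes E2f6 and Tcf12. Knockdown 1 had a peak at 33 of 45 (73.3%, beside 43.7% of all genes), knockdown size3 at 21 (46.7%, beside 35.5%) and knockdown 2 at 5 (11.1%, beside 7.95%). Control 1 had one at 2 of 45 (4.44%, beside 1.38%), control 2 at 0 (beside 0.315%) and control size3 at 5 (11.1%, beside 5.49%). The list has a median span of 36.9 kb, against 17.2 kb for all genes. A peak in any control library occurred at 6 of the 45 (13.3%), beside 6.7% of all genes and 0 of the 10. The difference between these lists was not tested. The 5 genes with no peak in any library were Amer1, Amer2, Dvl1, E2f6 and Tcf12, named here after their values were seen. Amer1, an APC-binding membrane protein gene, and Dvl1 belong to the pathway core; E2f6 encodes an E2F family repressor and Tcf12 a helix-loop-helix factor outside the TCF/LEF family.

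A region called in at least 2 knockdown libraries occurred at 3 of the 45 (6.67%), a share below the 8.52% of all genes. At Tcf7l2, the gene of a main nuclear partner of beta-catenin, it was inside the gene on chromosome 19, with 56 reads at 55920650 to 55921827 in knockdown 1 and 39 reads at 55920820 to 55921918 in knockdown size3; the gene had 5 and 7 peaks in these libraries. At Ctbp2, a corepressor gene, it crossed the upper gene end on chromosome 7, with 249 reads in knockdown 1 and 44 in knockdown size3. Both peaks also overlapped Gm35364. At Ppp2r5d, which encodes a regulatory subunit of protein phosphatase 2A, it crossed the lower end on chromosome 17. The knockdown 1 peak held 592 reads over 8144 bp and also overlapped Klhdc3 and Mea1. The knockdown size3 peak, inside Ppp2r5d, held 59 reads at a false discovery rate of 16.7%. Of the 38 listed genes with a start in the promoter table, 0 had a start in a region of both knockdown 1 and knockdown size3, a count close to the 2.12% of all genes.

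The pattern of Ctnnb1, with peaks in knockdown 1 and knockdown size3 and in no other library, was shared by Axin2 and Lrp6 among the 10 genes, by 11 of the 45 and by 17.8% of all genes. The 5 of these 11 whose summed reads in peaks were closest to the 173 of Ctnnb1 were Macf1 (167), Rnf146 (138), Pygo2 (128), Tnks (97) and Ppp2r5a (62), over 6 libraries. Macf1 itself had 138 reads in 1 peak of knockdown 1 and 29 in 1 peak of knockdown size3, in different places.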

How the data were processed

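Chromatin immunoprecipitates of MACF1 and inputs were sequenced from control and MACF1 knockdown MC3T3-E1 cells, and the 6 peak lists were used. The submitters' processing notes name cutadapt, Bowtie2 and GRCm38. Peaks were called by MACS 1.4.2, per the file headers, for each immunoprecipitate and its own input (no libraries pooled), with a p limit of 1.00e-05 and after removal of duplicate reads; the larger dataset was scaled to the smaller. The deposited counts are reads in a peak; the deposited score is 10 times the negative log10 p-value; the deposited fold enrichment is a ratio to the input's local background; the deposited false discovery rate is in percent; width and summit are in bp. Score and fold belong to their peak and were ranked only within a list; as alternatives, 1 limit on each was applied to every list.

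Gene spans (21887 protein-coding genes) and 250-base promoter windows came from RefSeq tables of GRCm38.p6. Starts and strands were known only for genes in the promoter table. A peak counted when at least 1 bp fell on a gene or within 5 kb; overlapping peaks of all lists were merged into regions. Peak numbers were compared by exact two-sided permutation of 3 against 3 libraries, with Benjamini-Hochberg adjustment over 10 genes (Python 3.11.15, scipy 1.17.1). Intervals are exact Poisson and cover counting error only. The steps were tested on simulated peaks. By rule, all 10 genes were named, as were those of the 45 pathway genes with a region in at least 2 libraries of a group, and the 5 with the calls of Ctnnb1 and the closest read sum. Members and lists were chosen with earlier results of these data known. Alternatives covered other windows, stricter peaks, equal list lengths, summits, scaling, the replicate label as a block and each library left out. Added after seeing the data were span classes, peaks per Mb, listed starts, peaks on the gene itself, and knockdown 1 with knockdown size3 alone.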

Additional observations from a re-analysis of the deposited data

How the results depend on the processing

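Control libraries had a peak at 0 of the 10 genes under every alternative except windows of 50 kb, which gave 1 (Axin2). Genes with a peak in any knockdown library numbered 9, and 7 to 10 under the alternatives other than peaks with a score of at least 100 or lists cut to the 198 best-scored peaks, which both left 1 (Lrp6). Leaving out 1 library gave 7 to 9. The matching shares of all genes, 57.7% for any knockdown and 6.7% for any control library, were computed for the main setting only. These counts under the alternatives are therefore not read as a result about the 10 genes. With a fold enrichment of at least 5, peaks occurred at 2 of the 10 genes in knockdown 1, beside 20.2% of all genes. Knockdown size3 then had 5 (33.3%) and knockdown 2 had 3 (7.95%). A score of at least 100 left 1 in knockdown 1, beside 9.98%, and 0 in knockdown size3 (3.55%) and knockdown 2 (0.393%). For regions within 1 or 50 kb or under these limits, shares of all genes were not computed. The same holds for regions with equal list lengths or with 1 library left out. Genes with a region called in at least 2 knockdown libraries numbered 2. This became 1 on the gene itself, within 1 kb, or with the peak on the gene, where Axin1 dropped out, 4 within 50 kb, and 0 with a fold enrichment of at least 5, a score of at least 100 or equal list lengths; leaving out 1 library gave 0 to 2. No region at these genes was called in 2 control libraries under any alternative run. Of 180 differences in peak number recomputed for single genes, 0 reversed, 156 kept their sign or stayed at 0, and 24 moved to or from 0. Control counts were 0 except at Axin2 within 50 kb, so no other difference could turn negative. The lack of reversals therefore does not measure how stable the direction was. The smallest exact permutation p was 0.1.

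Labels 1, 2 and size3 occur in both groups. With the replicate block, an exact sign-flip permutation within labels, the differences keep their values (1.33 peaks at Ctnnb1, 2.67 at Axin1, 2 at Lrp5 and Lrp6), and the smallest p was 0.25, also the smallest possible. Deviations from the group means over 12845 genes correlated at -0.04, 0.07 and 0.09 for same-label pairs. Pairs of different labels ran from -0.13 to 0.13, so the labels were not taken to pair libraries. Label size3 did go with a low share of duplicate reads in both groups. Its inputs held 10.5 M reads (control) and 10.2 M (knockdown), against 26.5 to 28.3 M for the other labels. What this label stands for is not given. Control lists were the shorter ones (198 to 2196 peaks) although control libraries held 10.7 to 33.1 M reads and knockdown libraries 5.58 to 18.5 M; the part of depth in the counts was not tested.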
